A study of Rattus norvegicus with 13 samples.

Results

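MicroRNA (miRNA) levels were compared between primary cortical neurons and primary cortical astrocytes of the rat. The miRNAs described are the 257 of the 350 rat miRNAs on the array that were detected on at least 3 of the 7 arrays of these cultures, 3 of neurons and 4 of astrocytes. Cortex of 1-day-old rats (postnatal day 1) gave both kinds of culture, which are labelled 10 days in vitro (DIV). Neurons were kept in Neurobasal medium with cytosine arabinoside (Ara-C), a drug that kills dividing cells, here used against glia. Astrocytes were kept in MEM with horse serum and then shaken overnight at high speed to detach oligodendroglia, microglia and neurons. Each array received 100 ng of total RNA labelled with Cy3. The study also holds oligodendrocyte and microglial cultures, which bring it to 13 arrays. The strain, the sex and the number of animals behind a culture are not in the labels, and nothing says that arrays of a group came from separate cultures. The p-values thus measure the spread between arrays of a group, pooled over all 13 arrays, which may be technical.

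A miRNA is a short RNA that guides Argonaute proteins to messenger RNAs and lowers their output. Bases 2 to 8, the seed, do most of the target pairing, so miRNAs with the same seed are grouped as a family. Many miRNAs are cut from a shared precursor transcript and thus come in genomic clusters, and each hairpin gives a pair of arms of which the weaker one is marked with a star. In brain, neurons are known for miR-124, miR-128 and the imprinted miRNAs of the Dlk1-Dio3 domain, and glia for miR-21 and for miRNAs linked to cell division.

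The sequences below are those of the miRNAs on which the comparison turns, written from the 5′ end with the seed in capitals and credited to RefSeq (assembly GRCr8). RefSeq mature sequences were matched by name and arm for 205 of the 257. The first set was far higher in neurons.
miR-128: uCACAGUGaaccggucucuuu
miR-137: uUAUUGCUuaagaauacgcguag
miR-132: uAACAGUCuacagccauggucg
miR-7a: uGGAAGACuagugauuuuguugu
miR-7b: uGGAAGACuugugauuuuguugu
miR-551b: gGCGACCCauacuugguuucagu
miR-135b: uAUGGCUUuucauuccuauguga
The second set comes from the Dlk1-Dio3 domain, and its entries differ in their seeds although they are encoded side by side.
miR-434: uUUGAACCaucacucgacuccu
miR-127: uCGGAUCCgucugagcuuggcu
miR-376a: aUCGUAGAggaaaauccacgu
miR-376b-3p: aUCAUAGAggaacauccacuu
miR-410: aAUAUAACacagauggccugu
miR-329: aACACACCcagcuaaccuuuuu
miR-494: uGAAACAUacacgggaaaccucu
The third set was higher in astrocytes, and it holds the groups miR-17-5p with miR-20a and miR-449a with miR-34b that each share a seed.
miR-21: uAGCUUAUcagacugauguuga
miR-146a: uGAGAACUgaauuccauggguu
miR-142-3p: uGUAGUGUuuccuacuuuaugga
miR-223: uGUCAGUUugucaaauacccc
miR-17-5p: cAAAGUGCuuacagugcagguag
miR-20a: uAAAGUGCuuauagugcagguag
miR-18a: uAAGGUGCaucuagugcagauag
miR-449a: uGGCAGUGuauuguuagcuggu
miR-34b: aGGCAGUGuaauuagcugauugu
miR-31: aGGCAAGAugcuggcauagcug
miR-143: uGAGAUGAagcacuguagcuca
The fourth set shares seeds with a miRNA above or with another entry of the set, and is shown because relatives differed in direction or size between the cultures.
miR-212: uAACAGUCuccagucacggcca
miR-135a: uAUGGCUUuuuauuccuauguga
miR-15b: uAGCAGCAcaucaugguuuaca
miR-16: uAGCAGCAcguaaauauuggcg
miR-195: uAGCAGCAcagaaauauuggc

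Levels are given as log2 of the array's signal for a miRNA over that array's 75th percentile, the percentile being taken over the 119 miRNAs detected on all 13 arrays. They were floored at -8.04, which is 0.38% of the percentile and stands for a signal at the edge of detection. A level is set only against the level of the same miRNA in the other culture, since probes differ in brightness. Differences are neurons minus astrocytes, and the call threshold was an adjusted p of 0.05 in limma, fitted on all 13 arrays with the 268 miRNAs detected on at least 3 of them. SEs and intervals therefore also carry the spread of the oligodendrocyte and microglial arrays. The microglial SD was 1.96 for miR-132, 1.57 for miR-204 and 1.82 for miR-211, and the oligodendrocyte SD of miR-135a was 0.725. For these miRNAs no neuron or astrocyte SD was above 0.35. Where no array of a culture detected a miRNA, the fold is a lower bound. It is taken against the lowest level detected on each of those arrays, or the miRNA's own level there if higher. The bound holds only for the scaling and background subtraction used, and differences under the alternatives could be smaller.

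The neuron arrays detected 241 to 258 miRNAs and the astrocyte arrays 160 to 208, with summed intensities of 276438 to 514270 and 147103 to 300152. Astrocyte array 3 stood apart, with 528 outlier spots against 131 to 350 on the other 6 arrays, a negative control SD of 142 against 3.99 to 10.0, and the lowest number of detected miRNAs. Its levels still correlated with those of the other astrocyte arrays at 0.997 to 0.998 across the 151 miRNAs detected on all 7 arrays, where miRNAs are not independent replicates. Neuron arrays correlated with each other at 0.996 to 0.998, and arrays of different cultures at 0.767 to 0.778. The neuron arrays lay on 1 slide and the astrocyte arrays on another, so slide and cell type cannot be told apart in any difference given here. After scaling, 6 control entries of the array that all 7 arrays detected differed between the groups by -0.32 to 0.30 on the log2 scale.

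Known marker miRNAs were set beside the labels. Of 17 neuron-associated miRNAs, 17 were higher in neurons, with a median difference of 3.34, where the median over all 257 was 0.62. For 3 of the 17, detected on the neuron arrays alone, the detection rule set the direction. Of 11 astrocyte-associated miRNAs, 8 were higher in astrocytes and 3 in neurons, with a median of -0.82. Over all tested miRNAs 56.0% were called higher in neurons and 25.4% higher in astrocytes. The lists were drawn up with earlier results of these data known, so their counts describe the cultures and are not independent evidence of a direction.

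Most of the miRNAs differed between the cultures. At the limma threshold 149 of the 257 were higher in neurons, 66 were higher in astrocytes and 42 were not called. Of all 268 tested, 56.0% were called higher in neurons, 25.4% higher in astrocytes and 81.3% in either direction, so a single call says little about a miRNA and its size says more. By at least 2-fold, 102 were higher in neurons (38.1% of the tested) and 44 in astrocytes (16.4%). By at least 8-fold, 44 were higher in neurons and 10 in astrocytes, and by at least 64-fold, 13 and 2. Of the 102, 52 were detected on the neuron arrays alone, and of the 44 at least 2-fold higher in astrocytes, 4 on the astrocyte arrays alone. The detection rule set the direction of these miRNAs, and the neuron counts at 8-fold and 64-fold hold some of them too. Among the 151 miRNAs detected on all 7 arrays, 37 were at least 2-fold higher in neurons and 29 in astrocytes. The arrays of the cultures did not overlap for 223 of the 257; over the tested miRNAs this held for 83.2%, with neurons higher for 58.2% and astrocytes higher for 25.0%. In bulk cultures, fewer cells of a type and less RNA per cell cannot be told apart.

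**Figure D1:**
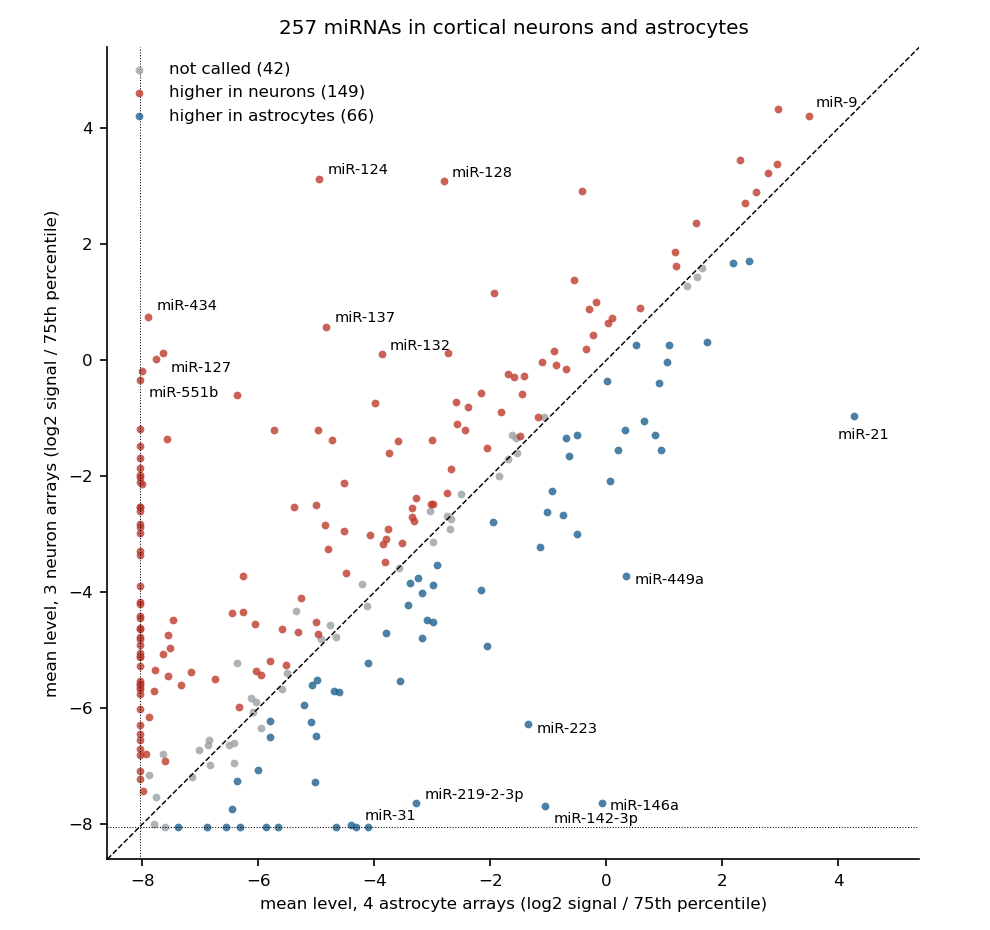
Mean level of each of the 257 miRNAs over the 4 astrocyte arrays (x axis) and the 3 neuron arrays (y axis), as log2 signal over the array's 75th percentile. The dashed line marks equal levels and the dotted lines the floor of -8.04; 149 points in red were called higher in neurons, 66 in blue higher in astrocytes and 42 in grey not called by limma.

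The split between the directions rests on the scaling. With the 75th percentile taken over all 350 miRNAs, the median of the members moved by -0.94 and the calls became 85 higher in neurons and 117 higher in astrocytes. Quantile normalization moved it by -0.94 and gave 90 and 121, and the deposited table moved it by -0.88 and gave 95 and 120. The neuron share of the calls was 69.3% as reported and 42.1%, 42.7% and 44.2% under those settings. Of the 102 miRNAs at least 2-fold higher in neurons, 74 kept the call under 5 other scalings, 22 kept the sign alone and 6 turned sign under at least 1. Of the 44 at least 2-fold higher in astrocytes, 40 kept the call, 4 kept the sign and 0 turned. Of the 47 called higher in neurons by under 2-fold, 0 kept the call throughout and 45 turned sign under at least 1 scaling. Of the 22 called higher in astrocytes by under 2-fold, 0 kept the call throughout, 21 kept the sign and 1 turned. With normexp background correction, of the 102 in neurons 30 lost the call and 8 turned sign, and of the 44 in astrocytes 9 lost the call and 0 turned. That setting added an offset of 50 to the signals, where the 75th percentile signals of the 7 arrays were 746.5 to 1964 as reported. An offset makes the log2 differences of dim miRNAs smaller by construction, and its part in the lost calls was not tested. Under every alternative tried, 53 of the 149 neuron calls and 31 of the 66 astrocyte calls were kept, all of them at least 2-fold. Of the 44 at least 8-fold higher in neurons 38 were kept, and of the 10 in astrocytes 10.

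**Figure D2:**
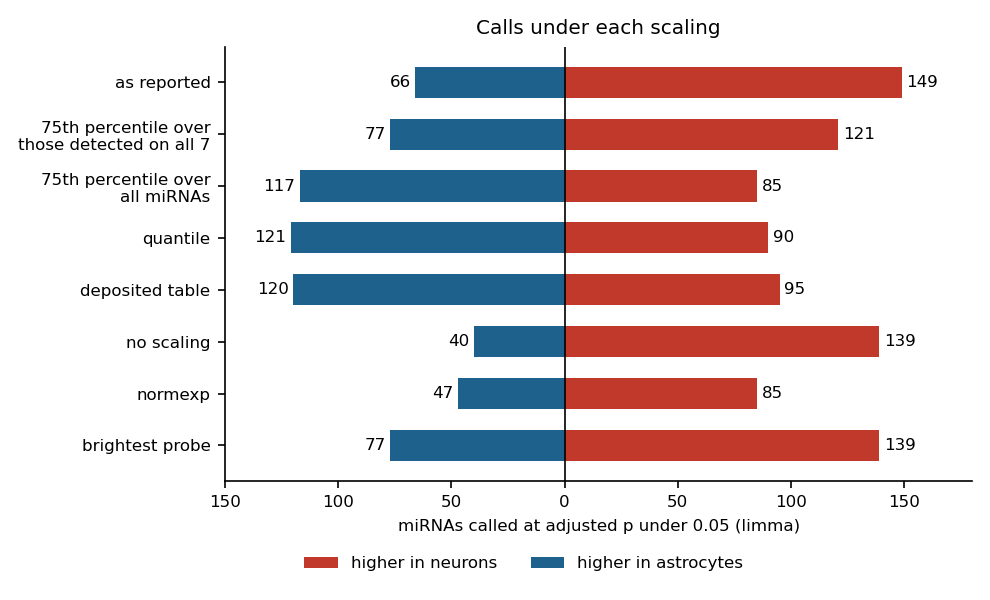
Number of miRNAs called by limma at an adjusted p under 0.05 as higher in astrocytes (blue, to the left) and in neurons (red, to the right), as reported and under 7 other ways of scaling or summarizing the arrays. The neuron bar is the longer one as reported at 149 against 66, and the astrocyte bar is longer with the percentile over all 350 miRNAs, quantile normalization and the deposited table.

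The detection calls of the scanner software, which need no scaling between arrays, were uneven. They were made on arrays of unlike summed intensity, and the part of intensity in the counts was not tested. All 7 arrays detected 151 of the miRNAs. Another 55 were detected on the 3 neuron arrays and on no astrocyte array, and 4 on the 4 astrocyte arrays and on no neuron array, which leaves 47 detected on part of the arrays. The 55 and the 4 passed the rule through the culture where they are high and had to differ, so their direction is no result. These 55 lie at the edge of the detection rule, which 59 miRNAs met with exactly 3 arrays. Just outside it were 6 miRNAs with 2 detecting arrays, namely miR-1, miR-138*, miR-148b-5p, miR-21*, miR-380 and miR-381. Of the 151 detected throughout, 77 were higher in neurons, 48 in astrocytes and 26 were not called, with a median difference of 0.32.

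Among miRNAs detected on all 7 arrays, the highest differences belonged to neuron-associated ones. miR-124, which promotes neuronal differentiation by repressing non-neuronal transcripts, was at 3.33, 2.95 and 3.12 on the neuron arrays and at -4.97, -4.99, -5.0 and -4.86 on the astrocyte arrays. It was detected on every array of both cultures, and the gap was many times the spread within either. The difference was 8.09 (SE 0.54), a 272-fold higher level in neurons, with an adjusted p of 7.9e-08 in limma. Its other arm, miR-124*, was detected on no astrocyte array and stood at least 5.34-fold higher in neurons, a call lost with normexp.

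miR-128, a regulator of neuronal excitability, was at 3.03, 3.13 and 3.13 in neurons and at -2.78, -2.81, -2.84 and -2.79 in astrocytes. That is a 59.6-fold difference (5.90, SE 0.27, limma adjusted p 3.15e-09). The array's probe annotation (build rn4) places it at chr13:40907625-40907644. miR-137, which acts on neuronal maturation and synapses and lies at chr2:214802357-214802376, was at 0.56, 0.66 and 0.52 against -4.81, -4.79, -4.98 and -4.74. Its level was 42.5-fold higher in neurons (5.41, SE 0.40).

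miR-132 and miR-212 are made from neighbouring hairpins on chromosome 10, 0.293 kb from end to end, share the seed AACAGUC, and are known as targets of the transcription factor CREB in active neurons. They did not move alike. miR-132 was at 0.18, 0.07 and 0.05 in neurons and at -3.76, -3.82, -3.98 and -3.93 in astrocytes, 15.7-fold higher (3.97, 95% interval 2.32 to 5.62). miR-212 was at -2.11, -2.36 and -2.42 against -2.77, -2.73, -2.77 and -2.68, a 1.36-fold difference (0.44, interval 0.13 to 0.75), which turned sign with the percentile over all miRNAs, quantile normalization and the deposited table and lost its call without neuron array 1. The intervals of the neighbours did not overlap, and the difference between them was not tested further.

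Other pairs in the neuron group were called in the same direction. miR-7a, which in the mouse brain is tied to the circular RNA Cdr1as, was at -1.42, -1.33 and -1.40 against -4.57, -4.71, -4.91 and -4.71, and was 10.1-fold higher in neurons (limma adjusted p 1.25e-06). miR-7b, with the same seed, was detected only on the neuron arrays and was at least 10.1-fold higher. Its probes disagreed, with differences of -0.02 to 4.47, and its call was lost with normexp (0.35). Both arms of the miR-129 hairpin followed the same way, miR-129* by 10.1-fold (3.34, SE 0.29) and miR-129 by 7.25-fold (2.86, SE 0.14). Of the other neuron-associated miRNAs detected on all 7 arrays, miR-218 was 4.47-fold higher in neurons, miR-153 3.63-fold and miR-138, a regulator of dendritic spine size, 3.12-fold. miR-139-5p was detected on the neuron arrays alone, at least 25.1-fold higher, and its partner arm miR-139-3p was 5.69-fold higher (2.51, SE 0.39).

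miR-9 and its partner arm miR-9*, both known from neural progenitors as well as neurons, lay toward the low end of the neuron-associated list, above miR-212 (0.44). miR-9 was at 4.20, 4.18 and 4.27 in neurons and at 3.56, 3.51, 3.44 and 3.46 in astrocytes. Its 1.65-fold higher level in neurons turned to -0.24 on the log2 scale with the percentile over all miRNAs and to 0 with quantile normalization, and was not called in the deposited table. miR-9* was 2.2-fold higher in neurons (1.14, SE 0.25), a call lost with the percentile over all miRNAs.

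**Figure D3:**
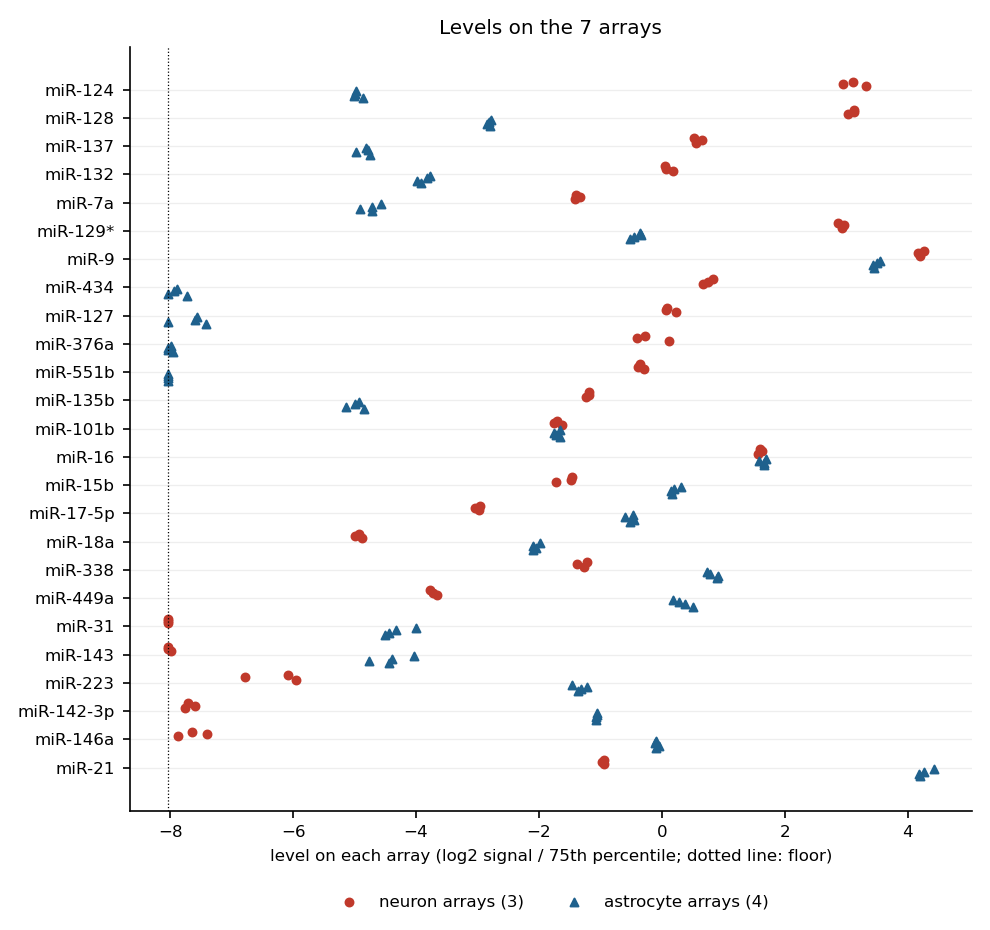
Level on each of the 3 neuron arrays (red circles) and 4 astrocyte arrays (blue triangles) for 25 miRNAs, as log2 signal over the array's 75th percentile, with the floor as a dotted line. Arrays of a culture lie close together beside the gaps between cultures, from miR-124 at the top (272-fold higher in neurons) through miR-101b and miR-16, whose arrays overlap, to miR-21 at the bottom (37.4-fold higher in astrocytes).

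Many of the miRNAs detected on the neuron arrays alone lay in the imprinted Dlk1-Dio3 domain on chromosome 6, where many miRNA hairpins are transcribed from the maternal chromosome. Of 47 miRNAs of the domain on the array, 40 were among the 257; 35 of these passed the detection rule through the 3 neuron arrays alone, so that their direction was set by the rule, and no count or median over them is read as a result. For description, 39 were called higher in neurons and 1 was not called, with a median difference of 3.74 that was 0.84 with normexp. The summed signal of all 47 on the array was 1040% to 1210% of the 75th percentile on the neuron arrays and 27.3% to 41.0% on the astrocyte arrays. miR-341, which was not on the list, lies within the same span (chr6:134176813-134425147, rn4), was also detected on the neuron arrays alone, and brings the miRNAs there to 41. The span covers 248 kb and holds 36 of the 55 miRNAs detected on neuron arrays alone, beside 41 of all 257. The 36 passed the rule through the neuron arrays, so this count is a description too.

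The highest lower bounds came from here. miR-434 was at 0.67, 0.75 and 0.83 in neurons and at -7.88, -7.95, -8.04 and -7.73 in astrocytes, where no array detected it. It was at least 377-fold higher in neurons, and its difference ran from 4.52 to 8.99 between the alternatives. miR-127, which in the mouse is encoded antisense to the retrotransposon-derived gene Rtl1, was at 0.23, 0.07 and 0.08 against -7.56, -7.59, -8.04 and -7.41. A single astrocyte array detected it, so its difference of 7.78 rests on levels near the floor.

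miR-376a was at 0.12, -0.40 and -0.27 against -7.99, -8.04, -8.04 and -7.96, at least 213-fold higher in neurons. miR-136 was at least 207-fold higher and its arm miR-136* at least 68.1-fold. In the distal cluster of the domain, miR-329 was at least 109-fold higher, miR-410 at least 88.1-fold, miR-376b-3p at least 69.7-fold, miR-495 at least 62.2-fold and miR-300-3p at least 61.3-fold. None of these was detected on an astrocyte array. Between the alternatives the log2 difference went down to 3.64 for miR-376a, 3.81 for miR-136 and 2.17 for miR-136*. It went down to 2.71 for miR-329, 2.46 for miR-410, 2.53 for miR-376b-3p, 2.06 for miR-495 and 2.02 for miR-300-3p. The 36 bounds in the span ran from 1.66-fold to 377-fold.

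A few miRNAs of the domain were measured in astrocytes too. miR-494 was at 1.47, 1.02 and 0.98 in neurons and at -1.92, -1.69, -2.17 and -1.93 in astrocytes, 8.48-fold higher (3.08, SE 0.32), and miR-487b was 7.3-fold higher (2.87), with differences of 0.47 to 5.04 between its probes and of 1.32 to 4.83 between the alternatives. miR-134, which limits dendritic spine growth, was at -3.48, -3.92 and -3.75 against -6.04, -6.04, -6.61 and -6.38, 5.85-fold higher in neurons, and was detected on 3 astrocyte arrays. The one not called was miR-409-3p, at -5.01, -5.51 and -5.16 against -5.58, -5.53, -7.96 and -6.41, with a limma adjusted p of 0.0596. The lowest of its astrocyte values was on array 3, and the adjusted p passed the threshold when astrocyte array 1 or 2 was left out.

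**Figure D4:**
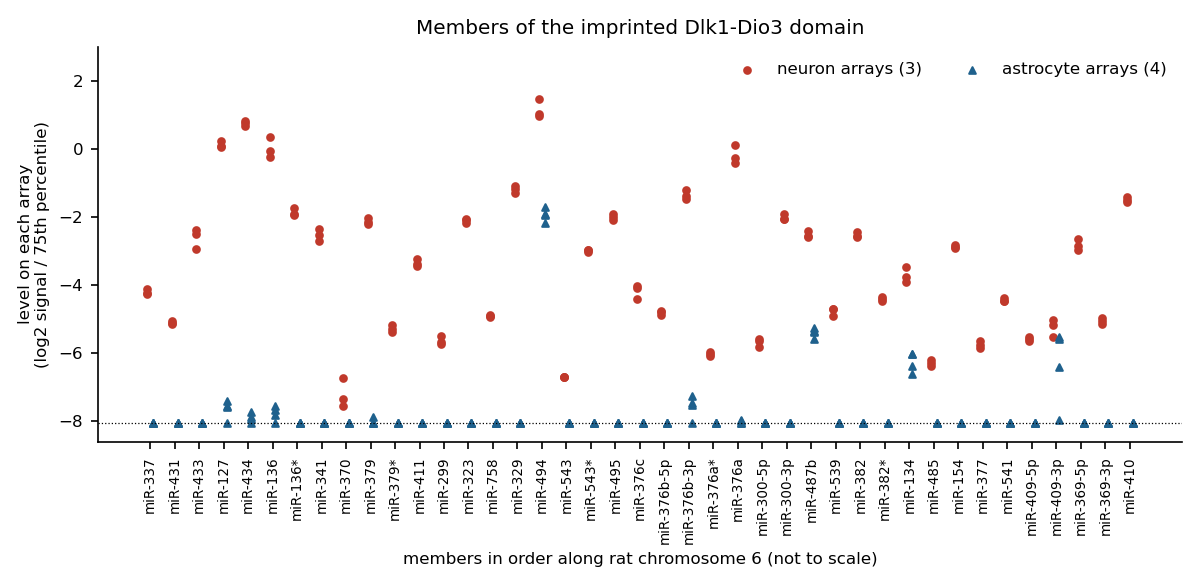
Level on each of the 3 neuron arrays (red circles) and 4 astrocyte arrays (blue triangles) for the 41 miRNAs in the Dlk1-Dio3 span, in order along chromosome 6, as log2 signal over the 75th percentile. Most blue triangles lie on the dotted floor line at -8.04, and the exceptions well above it are miR-494, miR-487b, miR-134 and miR-409-3p.

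Outside the domain 63 miRNAs were at least 2-fold higher in neurons, and 19 were detected on the neuron arrays alone. miR-551b was at -0.29, -0.38 and -0.35 in neurons and at the floor on the 4 astrocyte arrays, at least 195-fold higher. It lies at chr2:114095935-114095955. miR-327 was at least 76.7-fold higher and miR-873 at least 16.6-fold. Between the alternatives the log2 difference went down to 3.497 for miR-551b, 2.285 for miR-327 and 0.687 for miR-873. miR-335, which in mouse and human lies in the imprinted Mest gene, was at -0.74, -0.64 and -0.83 against -3.97, -3.96, -4.09 and -3.95, 9.57-fold higher (limma adjusted p 1.36e-06). miR-466b was at -0.65, -0.86 and -0.30 against -6.02, -6.18, -6.93 and -6.31, a difference of 5.76, and was detected on 3 astrocyte arrays.

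Some families had most of their miRNAs called in the same direction. Over all tested miRNAs 56.0% were called higher in neurons, so with so few members these counts are a description. In the miR-181 family 3 of 4 were called higher in neurons, led by miR-181c at 4.56-fold and miR-181a at 3.84-fold, with a family median of 1.42 that ran from 0.46 to 1.72 under the other scalings. In the miR-30 family 5 of 5 were called higher, with a median of 1.07. With the percentile over all miRNAs the median was 0.11. Under at least 1 alternative 3 of the 5 lost the call and 1 turned sign, while miR-30d (2.48-fold) kept its call under all of those tried. miR-125b-5p, often listed as an astrocyte miRNA, was at 4.33, 4.31 and 4.36 in neurons and at 3.00, 2.99, 2.92 and 2.94 in astrocytes, 2.59-fold higher in neurons. All 8 let-7 miRNAs were called higher in neurons with a median of 0.37, which became -0.59 with the percentile over all miRNAs, -0.05 with quantile normalization and -0.05 in the deposited table.

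The astrocyte side was led by miR-21, a miRNA linked to reactive glia and to cell growth. It was at 4.43, 4.27, 4.18 and 4.21 in astrocytes and at -0.95, -0.97 and -0.94 in neurons. The 37.4-fold higher level in astrocytes (-5.22, SE 0.26, limma adjusted p 7e-09) was the largest in that direction among miRNAs detected on all 7 arrays, and every alternative tried kept the call. The annotation places it at chr10:74864553-74864572. Its mean level in the microglial cultures of the study was 4.92.

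The miR-34 and miR-449 family, whose members share the seed GGCAGUG and include miRNAs of ciliated cells, was higher in astrocytes in 4 of 4 members. Of all tested miRNAs 25.4% were called in that direction. miR-449a was at 0.18, 0.28, 0.38 and 0.51 in astrocytes and at -3.67, -3.73 and -3.77 in neurons, 16.7-fold higher in astrocytes (limma adjusted p 9.55e-09). miR-34b was 3.48-fold higher and miR-34c 3.03-fold, while miR-34a, a target of p53, differed by 1.2-fold (-0.26), which became 0.04 without scaling. Of the other miRNAs listed for choroid plexus and ciliated ependyma, miR-204 was higher in neurons by 2.73-fold, a call that was lost without any 1 of the neuron arrays, with quantile normalization and with the percentile over all or over the 151 miRNAs, and miR-211 was not called (0.23, interval -1.17 to 1.63). The sum of the 5 miRNAs of that list was 175% to 211% of the percentile on the astrocyte arrays and 96% to 109% on the neuron arrays, and its part in these differences was not tested.

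The miR-17 cluster and its paralogs, which promote cell division, were also mostly higher in astrocytes than in neurons. Of 13 measured, 12 were higher in astrocytes, 0 in neurons and 1, miR-92b, was not called, with a median difference of -1.61. Over all tested miRNAs 25.4% were called higher in astrocytes. The 8 miRNAs of the cluster on chromosome 15 (chr15:99853756-99854509) were all called, with differences of -2.87 to -1.16. miR-18a was at -1.99, -2.10, -2.05 and -2.09 in astrocytes and at -4.87, -4.99 and -4.93 in neurons, 7.32-fold higher in astrocytes. miR-20a was at 0.96, 0.87, 0.98 and 0.94 against -1.59, -1.57 and -1.50, 5.62-fold higher, and miR-17-5p was 5.58-fold higher. miR-92a followed at 4.41-fold, miR-19a at 4.2-fold and miR-19b at 2.49-fold. In the paralogous cluster on chromosome 12, miR-93 was 3.04-fold, miR-25 2.47-fold and miR-106b 1.73-fold higher in astrocytes, the miR-106b call being lost without scaling. These levels were not particular to astrocytes. The means of miR-17-5p, miR-18a, miR-19a, miR-19b and miR-20a were higher still in the oligodendrocyte and microglial cultures. For miR-20a they were 1.77 and 1.57, against 0.94 in astrocytes. miR-25 was lower in oligodendrocytes (-1.275) than in astrocytes (-0.944). The labels name Ara-C for the neuronal cultures only, so drug and cell type cannot be told apart here.

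Of 7 miRNAs of the miR-23, miR-27 and miR-24 clusters 6 were higher in astrocytes, a direction called for 25.4% of all tested. Among them miR-27a was higher by 3.23-fold, miR-27b by 2.88-fold, miR-23a by 2.67-fold, miR-23b by 2.1-fold and miR-24 by 1.76-fold. The calls of miR-23b and miR-24 were lost without scaling. miR-221, which represses the cell cycle inhibitor p27, was at -0.57, -0.73, -0.88 and -0.83 in astrocytes against -2.69, -2.72 and -2.58 in neurons, 3.76-fold higher, and its cluster partner miR-222 was 2.61-fold higher. The miR-29 family was divided: miR-29b and miR-29a were higher in astrocytes by 1.68-fold and 1.42-fold, both lost without scaling, and miR-29c was higher in neurons by 1.56-fold (0.64), which became -0.32 with the percentile over all miRNAs. miR-193 was 3.94-fold higher in astrocytes, and the hypoxia-induced miR-210 2.88-fold.

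The X-linked miR-322 and miR-503 cluster was split between called and uncalled miRNAs, although the calls ran 1 way. Of its 7 miRNAs, which lie at chrX:139995000-140000232, 3 were higher in astrocytes, 0 in neurons and 4 were not called, with a median difference of -0.44. The share called higher in astrocytes over all tested was 25.4%. miR-542-3p was at -4.77, -4.79, -4.57 and -4.64 in astrocytes and at -5.63, -5.66 and -5.80 in neurons, 2.01-fold higher in astrocytes. miR-450a was 2.07-fold higher, was detected on 1 neuron array and lost its call with normexp, as miR-542-3p did without scaling. Both arms of the miR-872 hairpin were higher in astrocytes, miR-872 by 1.54-fold and miR-872* by 1.86-fold, and both calls were lost without scaling, that of miR-872* also with normexp. By contrast both arms of the miR-342 hairpin, which in mouse and human lies in an intron of the Evl gene, were higher in neurons: miR-342-3p was at -0.56, -0.60 and -0.54 against -2.17, -2.09, -2.18 and -2.19, 3.01-fold higher (limma adjusted p 4.56e-08), and miR-342-5p was at -5.73, -5.68 and -5.71 against -7.43, -8.04, -8.04 and -7.72. The astrocyte values of miR-342-5p were at or near the floor, and its call was lost with normexp, quantile normalization and the deposited table.

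**Figure D5:**
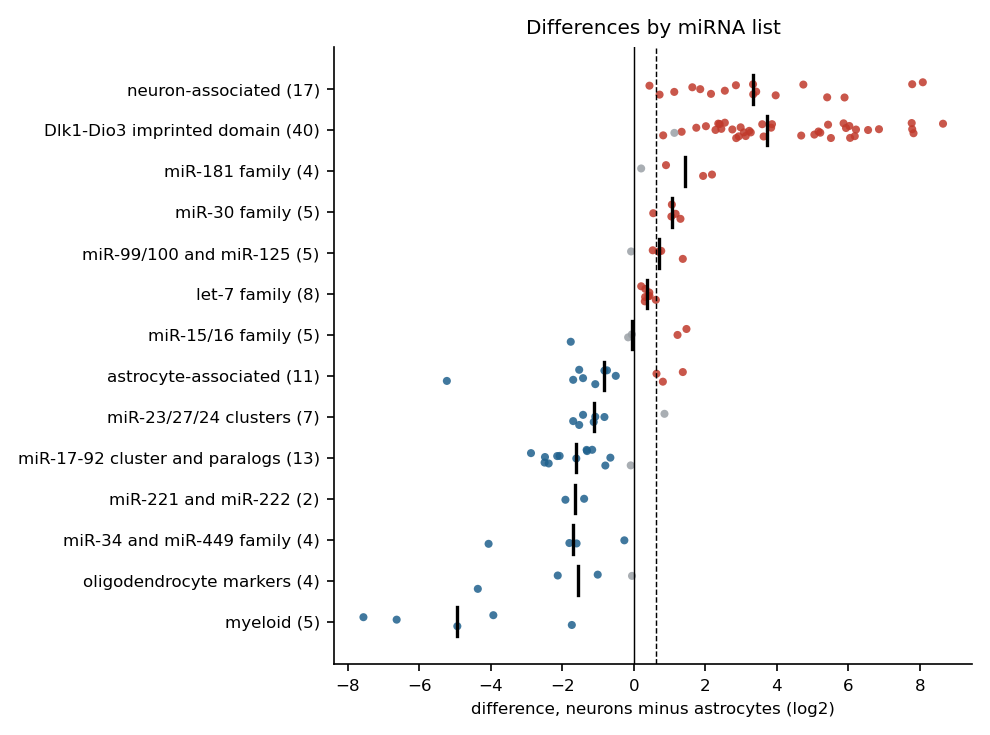
Difference between neurons and astrocytes in log2 for the members of 14 lists, with the number of members in brackets; red points were called higher in neurons, blue higher in astrocytes and grey not called by limma. Short vertical bars are list medians and the dashed line is the median over all 257 miRNAs, 0.62; the medians run from 3.74 for the Dlk1-Dio3 domain to -4.93 for the myeloid miRNAs.

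Only 4 miRNAs were detected on every astrocyte array and on no neuron array. miR-31 was at -4.0, -4.32, -4.44 and -4.50 in astrocytes and at the floor on the 3 neuron arrays, at least 13.2-fold higher. miR-143, known from smooth muscle and other mural cells, was at -4.03, -4.39, -4.76 and -4.43 against -7.98, -8.04 and -8.04, at least 12.3-fold higher. miR-199a-3p, a mesenchymal miRNA, was at -4.60, -4.64, -4.75 and -4.63, at least 10.4-fold higher, and miR-142-5p, a miRNA of blood cells, was at least 15.2-fold higher. Between the alternatives the log2 difference shrank to -0.78 for miR-31, -0.75 for miR-143, -0.67 for miR-199a-3p and -0.89 for miR-142-5p. None of these calls was lost. On 3 of the 4 astrocyte arrays and on no neuron array, miR-224 was at least 4.49-fold higher and miR-375 at least 2.8-fold, and both calls were lost with normexp. Array 3 was the one that missed miR-224 and miR-375, as it was for all 31 of the 257 miRNAs that exactly 3 astrocyte arrays detected.

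miRNAs of microglia and other blood-derived cells stood out on the astrocyte side. The array held 5 of the 6 listed, miR-155 not being analysed here, and 5 of 5 were higher in astrocytes with a median difference of -4.93. Over all tested miRNAs 25.4% were called that way. miR-142-5p and miR-150 passed the detection rule through astrocyte arrays alone, so their direction was set by the rule. miR-146a, a brake on inflammatory signalling, was at -0.10, -0.10, -0.04 and -0.09 in astrocytes and at -7.87, -7.40 and -7.65 in neurons. miR-142-3p was at -1.05, -1.05, -1.07 and -1.06 against -7.76, -7.60 and -7.70. Each of these was detected on 1 of the 3 neuron arrays, so the differences of -7.56 and -6.63 rest on neuron levels near the floor. miR-223, a myeloid miRNA, was detected on all arrays and was 30.5-fold higher in astrocytes (-4.93, SE 0.38, limma adjusted p 3.1e-07).

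The summed signal of the 5 was 185% to 192% of the 75th percentile on the astrocyte arrays and 2.25% to 2.57% on the neuron arrays. Against the microglial cultures of the study, the astrocyte level was 7.72% for miR-223, 7.49% for miR-142-3p, 6.11% for miR-142-5p, 5.97% for miR-146a and 0.878% for miR-150, whose call was lost with normexp. In neurons these shares ran from 0.0317% to 0.402%. Of the 44 miRNAs at least 2-fold higher in astrocytes, these 5 alone were under 10% of their microglial level, and 19 were at or above it. The part of microglia in the astrocyte cultures in these differences was not tested.

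Oligodendrocyte markers were higher in astrocytes as well, in 3 of 4 cases, with a median difference of -1.57. That direction was called for 25.4% of all tested miRNAs. miR-338 was at 0.73, 0.79, 0.91 and 0.90 in astrocytes and at -1.27, -1.38 and -1.22 in neurons, 4.36-fold higher (limma adjusted p 2.36e-06), and miR-219-5p was 2.01-fold higher, a call lost without scaling. miR-219-2-3p differed by -4.36 and was detected on 1 neuron array. The summed signal of the 4 was 234% to 267% of the percentile on the astrocyte arrays and 69.5% to 77.0% on the neuron arrays. Against the oligodendrocyte cultures, the astrocyte level was 30.9% for miR-338, 18.6% for miR-219-2-3p and 17.3% for miR-219-5p, and the neuron level 7.09%, 0.907% and 8.63%. miR-338*, which was not called (-0.05, interval -0.68 to 0.59), stood at 18.9% in astrocytes and 18.3% in neurons. The part of oligodendrocytes in these differences was not tested.

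A few markers of other cells lay on the neuron side. miR-451, the main miRNA of red blood cells, was at -4.72, -4.73 and -4.47 in neurons and at the floor in astrocytes, at least 9.88-fold higher in neurons, a call lost with normexp. The endothelial miR-126 was at -5.54, -5.30 and -5.30 against -7.24, -7.03, -7.60 and -6.79. It was detected on 1 astrocyte array. The muscle miRNA miR-206 was detected on the neuron arrays alone, at least 4.06-fold higher. The calls of miR-126 and miR-206 were both lost with normexp, quantile normalization and the deposited table, with differences down to 0.03 and 0.05. miR-214 was at -4.94, -5.27 and -5.15 in neurons and at the floor in astrocytes, at least 7.08-fold higher in neurons, a call lost with normexp. It is encoded 5.44 kb from end to end with miR-199a-3p on chromosome 13, which was detected on the astrocyte arrays alone. Each passed the detection rule through 1 culture, so the opposite directions of these neighbours were set by the rule. The directions of miR-451 and miR-206 were set by it in the same way. Of the epithelial miR-200 family 0 of 5 were among the 257. The part of these cells was not tested.

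Some miRNAs were alike within narrow limits. miR-101b was at -1.62, -1.75 and -1.71 in neurons and at -1.66, -1.75, -1.72 and -1.66 in astrocytes, with a difference of 0.00 and a 95% interval of -0.16 to 0.17. For miR-16 the interval was -0.19 to 0.08, for miR-140 it was -0.22 to 0.11 and for miR-186 it was -0.12 to 0.25. It was wider for miR-99b (-0.51 to 0.37) and miR-877 (-0.52 to 0.49). These intervals hold for the scaling used: with the percentile over all miRNAs, miR-101b differed by -0.96 and miR-186 by -0.90.

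Families with a common seed varied. Among the 205 miRNAs with a sequence there were 158 seeds, 26 of them shared by at least 2 miRNAs. In 13 of the 26 every miRNA was called in the same direction, in 4 there were calls in both, and 9 held uncalled miRNAs with calls in at most 1 direction. With 56.0% of the tested miRNAs called higher in neurons and 25.4% in astrocytes, shared directions among so few miRNAs are given as a description. The seed AUGGCUU was the widest of those 4. miR-135b was at -1.24, -1.18 and -1.19 in neurons and at -4.92, -5.0, -5.13 and -4.85 in astrocytes, a difference of 3.77 (SE 0.37). miR-135a was at -1.32, -1.32 and -1.36 against -0.76, -0.73, -0.69 and -0.61, a difference of -0.64 (limma adjusted p 0.0335) whose call was lost when any 1 of the 7 arrays was left out.

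The seed AGCAGCA also split. miR-15b was at 0.31, 0.21, 0.15 and 0.16 in astrocytes and at -1.72, -1.48 and -1.46 in neurons, 3.39-fold higher in astrocytes. miR-16, encoded within 0.165 kb of it on chromosome 2 but also at another locus, did not differ beyond its spread. miR-195 and miR-497, a pair on chromosome 10, were higher in neurons by 2.34-fold and 2.78-fold, but both calls were lost with the percentile over all miRNAs (0.27 and 0.52), and that of miR-497 also with quantile normalization. The seed GAGAACU held miR-146a with its difference of -7.56 and miR-146b with -0.80 (SE 0.07), a 1.74-fold higher level in astrocytes that was not called without scaling. The seed AGUGCAA held miR-130a, not called at -0.12 (interval -0.33 to 0.10), and miR-130b, higher in neurons by 2.57, detected on 1 astrocyte array and not called with normexp or in the deposited table.

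Clusters in the genome were described in the same way. With a limit of 10 kb between probes, the 250 miRNAs with coordinates formed 50 clusters of at least 2, of which 20 were called entirely higher in neurons and 8 entirely higher in astrocytes. In 3 clusters calls went both ways, and 19 held uncalled miRNAs with calls in at most 1 direction. Many clusters are the arms of a single hairpin, and the shares called among all tested, 56.0% and 25.4%, stand beside these counts too. Within the cluster at chrX:27323162-27323577, 3 of 3 were called higher in neurons, but by 0.25 to 4.53: miR-188 was at -0.90, -1.40 and -1.30 against -5.63, -5.42, -6.02 and -5.84. Of 53 pairs of arms from the same hairpin, 36 were called in the same direction, 0 in opposite directions and 17 had at least 1 arm not called. Both arms of some hairpins, such as miR-376a and miR-382, were detected on the neuron arrays alone, so they could not be called in opposite directions. The detection rule likewise set the directions in some clusters, such as miR-341 with miR-370 and miR-199a-3p with miR-214. Most miRNAs were read by several probes, and for 182 of the 215 called miRNAs every probe pointed the same way; for 33 at least 1 probe did not.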

How the data were processed

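Per the file headers, the authors scanned Agilent 1-colour rat miRNA arrays with Agilent Feature Extraction 9.5.3.1, which deposited spot intensity after background subtraction, and a total intensity and detection call per miRNA, with no scaling between arrays. A further deposited table gives log2 values per array; no label states its method, its column medians (5.22 to 5.23) are near-equal, and it was read as quantile-normalized total signal and used as an alternative. Outlier spots were dropped, spots averaged per probe and probes per miRNA, and each array divided by its 75th percentile over 119 miRNAs, floored and taken to log2. Every intensity is one array's reading, so the number of arrays limits precision. All 13 arrays were fitted with limma 3.58.1 in R 4.3.3 (lmFit, eBayes), with Benjamini-Hochberg adjustment over 268 miRNAs and no block, since the same replicate number does not pair cultures. Python 3.11.15 with matplotlib 3.10.9, pandas 2.3.3 and numpy 2.4.6 made the tables and figures. The steps were tested on simulated data. The members and lists were chosen with earlier results of these data known. Named miRNAs were the 15 highest and 15 lowest differences detected on all 7 arrays, the 10 highest lower bounds each way, 6 with the smallest difference, list members and arrays far from their group; miR-873, miR-466b, miR-341, miR-135a, miR-135b, miR-146b, miR-342-5p, miR-872, miR-872*, miR-224, miR-375, miR-210 and the miRNAs just outside the detection rule were picked with their values known. The alternatives run were other scalings, floors, filters, summaries, fits, a replicate block and leaving out each array.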

Additional observations from a re-analysis of the deposited data

Results flagged for a closer look

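Among 126 named miRNAs, 4 had an astrocyte array whose gap to the nearest other array took up most of the group's range (above Dixon's critical value at the 95% level). Chance flags about 1 in 20 groups. Astrocyte array 3 was the low one in 3 of them: miR-335 was at -4.09 there against -3.97 to -3.95 on the others, miR-203 at -7.07 against -6.29 to -6.20, and miR-338* at the floor of -8.04 against -6.91 to -6.79. miR-379 was at -7.87 on astrocyte array 1 and at the floor on the other 3. Array 3 is also the one with the fewest detected miRNAs and the highest negative control SD, and its part in these values was not tested.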

How the results depend on the processing

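The count higher in neurons (149 as reported) and in astrocytes (66) became 85 and 117 with the 75th percentile over all miRNAs, 90 and 121 with quantile normalization, and 95 and 120 in the deposited table. Normexp background gave 85 and 47, no scaling 139 and 40, and keeping only the miRNAs detected on all 7 arrays 77 and 48, the last from fewer miRNAs tested; for the others the cause was not tested. Leaving out each array gave 139 to 148 and 60 to 67, and without astrocyte array 3 the counts were 142 and 67. The replicate block gave 139 and 63; same-numbered arrays correlated in their deviations at 0.296, -0.523 and 0.083, so the numbers do not pair the samples. All other alternatives stayed within 1.5 times of both counts. Under at least 1 alternative, signs turned for 57 of the 149 calls in neurons and 1 of the 66 in astrocytes. Examples are miR-212 (-0.52 with the percentile over all miRNAs, -0.49 in the deposited table, -0.56 with quantile normalization), miR-9 (-0.24 with the percentile over all miRNAs, 0.0 with quantile normalization), miR-29c (-0.32 with the percentile over all miRNAs) and miR-34a (0.04 without scaling). Among miRNAs not called, signs turned for miR-101b (-0.96, -0.85 and -0.86 with the percentile over all miRNAs, the deposited table and quantile normalization, -0.32 with the percentile over the 151 miRNAs found on each of the 7 arrays) and miR-186 (-0.90, -0.91, -1.04 and -0.26 in the same order). Of the 149 calls in neurons 53 and of the 66 in astrocytes 31 were kept under every alternative. Signal near the floor limits the folds of miRNAs detected in 1 culture.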
